A study of Cornus officinalis with 7 samples.

Results

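Young and mature leaves of *Cornus officinalis*, a medicinal tree of the dogwood family, were compared by RNA-seq. Its tissues store iridoids, triterpenoids and gallotannins. Leaf and stem were each sampled young and mature, beside inflorescence, seed and pericarp. All 7 tissues were labelled as the same plant material, 12 years old, grown outdoors in a medicinal garden without any treatment, with 1 library per tissue. Young leaf and mature leaf therefore differed by their stage alone as far as the labels tell, and neither the leaf age in days nor the harvest date was used here. Expression was given as FPKM, the fragment count scaled for transcript length and for the mapped fragments of the library, for each unigene, a transcript of the *de novo* assembly. A unigene entered the comparison at an FPKM of at least 1 in either leaf library. A total of 96318 of 304371 unigenes (31.6%) did so, of which 46621 reached an FPKM of 1 in both leaves, 24924 in young leaf only and 24773 in mature leaf only.

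Each unigene was described by log2((young leaf + 1)/(mature leaf + 1)), in which a positive value means a higher FPKM in young leaf, and it was called higher in a leaf from a 2-fold difference on this scale. With 1 library per stage there was no replicate check, and no p-value could be given. Differences between leaf stages, single leaves and library preparations cannot be told apart, and fewer cells of a type cannot be told apart from less RNA per cell. The deposited tables give unigene numbers without gene names, so the leaf labels were not checked against marker genes of leaf cell types. Enzyme names are those that the study assigned by sequence similarity. From these transcripts the study then assigned only a co-expressed part to each pathway. The pathway lists used here are the whole lists, so their counts and sums include unigenes outside that part.

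A leaf passes, as it expands, from cell division and wall growth to a mature organ that exports sugar. Specialised metabolites are often made in a stage-dependent manner in leaves. Iridoids are monoterpenoids: geranyl diphosphate is converted to geraniol, oxidised, closed to the iridoid ring, glucosylated, and methylated to loganin, which secologanin synthase opens. Triterpenoids arise from farnesyl diphosphate through squalene and its epoxide, which oxidosqualene cyclases fold into amyrins, lupeol or the sterol precursor cycloartenol. Gallotannins are esters of glucose with gallic acid, which derives from the shikimate pathway. Cytochrome P450s are membrane-bound oxygenases that decorate these backbones.

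The depth of the leaf libraries could be set against each other from their low values. Among 3134 unigenes above 0 in these libraries alone, the commonest ratio of the FPKM values was 1, with 606 (19.3%) of them in the bin of width 0.04 on the log2 scale around it. One fragment was therefore worth the same FPKM in young and in mature leaf. The summed FPKM was 948009 in young leaf and 915196 in mature leaf. The mature stem library stood apart from all others: only 486 (0.505%) of the 96318 unigenes reached an FPKM of 1 there, against 50375 (52.3%) to 56793 (59.0%) in the other 4 non-leaf tissues. Its values are therefore printed for single unigenes only where they are not near 0.

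Most unigenes that were well expressed in both leaves had similar levels at the young and the mature stage. At an FPKM of 10 or more in both leaves, 7301 (74.8%) of 9765 unigenes lay within 1.5-fold, and the median log2 ratio was 0.11. This filter leaves out unigenes below 10 in the lower leaf, which raises the share. Of the 13616 unigenes at 10 or more in either leaf, 1570 with that level in young leaf were at least 2-fold higher there. In mature leaf the same held for 776. The most abundant transcripts were also largely shared. Of the 100 unigenes with the highest FPKM in young leaf, 84 were among the 100 highest of mature leaf. Of the 116 unigenes in either of these groups, 12 were at least 2-fold higher in young leaf and 15 in mature leaf.

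Over all 96318 unigenes, 20913 (21.7%) were at least 2-fold higher in young leaf and 19793 (20.5%) in mature leaf, together 40706 (42.3%). A 4-fold difference was reached by 2354 (2.44%) and 2233 (2.32%), together 4587 (4.76%). These near-equal counts came mostly from transcripts at the edge of detection. A unigene with an FPKM of at least 1 in one leaf that is listed at 0 in the other is past 2-fold by construction on this scale. This held for 15431 of the unigenes higher in young leaf and for 16448 of those higher in mature leaf. An FPKM below 5 in the higher leaf was found for 17566 (84.0%) and 17873 (90.3%) of them. A value of 0 can be a failed estimate as well as an absent transcript, so such unigenes are described as listed at 0. Just inside the threshold, 3199 unigenes had an FPKM of 1.00 to 1.04 in the higher leaf, with 51.0% of them listed at 0 in the other leaf. Just outside it, at 0.95 to 0.99, there were 3330, with 53.2% at 0.

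Among well-expressed unigenes the balance lay towards young leaf. Where both leaves reached an FPKM of 1, 3358 (7.2%) unigenes were higher in young leaf and 1772 (3.8%) in mature leaf, together 11%. At an FPKM of at least 10 in the higher leaf, 1570 unigenes were higher in young leaf and 776 in mature leaf. At 100 or more the counts were 186 and 106. When the log2 ratios were centred on the median of 0.11 named above, 1319 unigenes at an FPKM of 10 were past 2-fold in young leaf and 946 in mature leaf. Over all unigenes the same centring turned the order round, with 17165 higher in young leaf and 20832 in mature leaf. The unigenes higher in young leaf held 15.4% of the summed FPKM of young leaf and 3.93% of that of mature leaf. Those higher in mature leaf held 12.2% of the sum in mature leaf and 2.62% in young leaf.

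**Figure D1:**
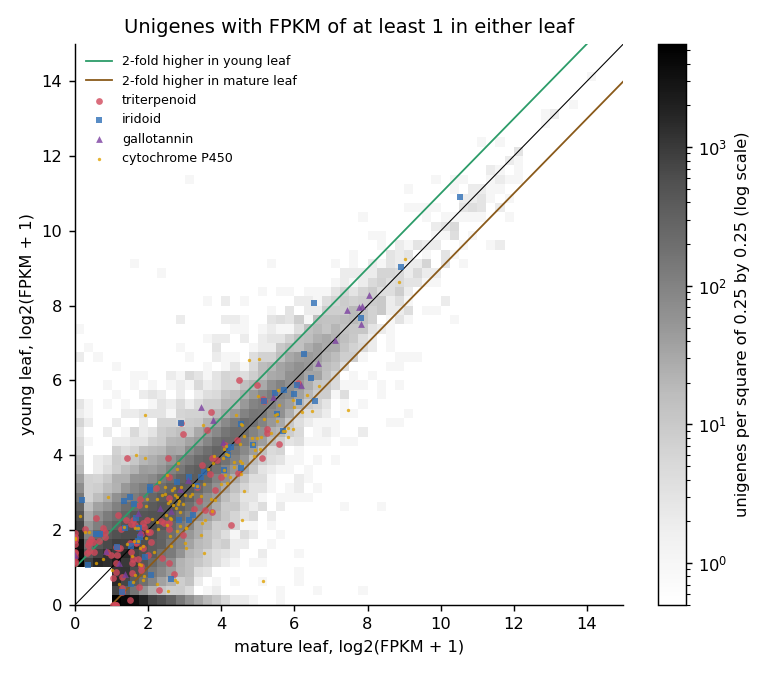
Each grey square counts unigenes by their log2(FPKM + 1) in mature leaf (x axis) and young leaf (y axis), darker for more unigenes on a log scale, and coloured points are unigenes of the enzyme lists. The black line marks equal values and the coloured lines a 2-fold difference. The cloud narrows around equality as the level rises, while the rows of squares along both axes hold unigenes listed at or near 0 in the other leaf.

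The share past 2-fold depended on the level. Below a mean FPKM of 1 over the leaf libraries, 37.0% of 28269 unigenes were higher in young leaf and 39.0% in mature leaf. Both shares fell to 8.17% and 3.57% at a mean FPKM of 20 to 50. They stood at 11.5% and 6.64% among the 1054 unigenes at 100 or more. From a mean FPKM of 2 upwards the share higher in young leaf exceeded that in mature leaf in each interval.

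**Figure D2:**
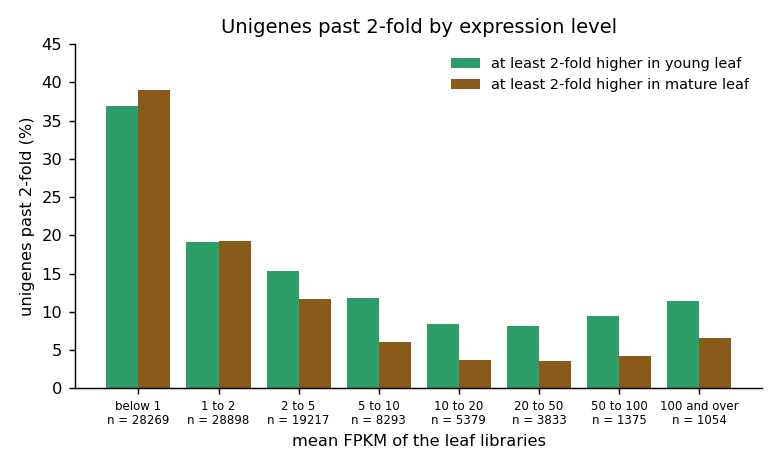
Bars give the percentage of unigenes at least 2-fold higher in young leaf (green) or mature leaf (brown), in intervals of the mean FPKM of the leaf libraries, with the number of unigenes under each interval. The bars are about equal below a mean FPKM of 2, and the green bar is the taller one in every interval above it.

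The largest differences of all were those of unigenes outside the enzyme lists, for which no gene name was available here. Unigene220697 had an FPKM of 2474.74 in young leaf and 7.61 in mature leaf, a 325-fold difference, with 21.17 in young stem and 0.47 or less elsewhere. Unigene279306 followed with 517.40 in young leaf and 1.90 in mature leaf, and it reached 92.42 in young stem. In the other direction, Unigene267827 had 0.40 in young leaf and 224.05 in mature leaf, 560-fold more, with 35.61 in inflorescence and 0 in the remaining tissues. Unigene262699 had 0.39 and 93.10, with pericarp next and less than 2 in the other tissues. Both transcripts high in young leaf were thus next highest in young stem, while those high in mature leaf were next highest in a reproductive organ.

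At an FPKM of at least 10 in the higher leaf, a cut added after seeing the data, the groups past 2-fold also differed in where else they were expressed. The 1570 unigenes higher in young leaf with an FPKM of at least 10 there had a median FPKM of 20.7 in young leaf and 5.99 in mature leaf. Their median in young stem was 24.5, above that of young leaf itself, followed by 13.6 in inflorescence, 8.43 in pericarp and 6.84 in seed. Young stem was the highest of the other 5 tissues for 748 of them (47.6%), against 27.4% of all 13616 unigenes that reached an FPKM of 10 in either leaf. Over all 20913 unigenes higher in young leaf the contrast was small, with young stem the highest of the other tissues for 27.7%, against 24.5% of all 96318. At an FPKM of 10, young stem was thus the tissue in which transcripts higher in young leaf were most often found again.

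The 776 unigenes higher in mature leaf had a median FPKM of 19.1 in mature leaf and 5.57 in young leaf. Their medians elsewhere were all lower, with 6.46 in pericarp, 4.63 in inflorescence, 3.28 in young stem and 3.02 in seed. Pericarp was the highest of the other tissues for 286 (36.9%) of these 776, against 22.7% of the 13616, and young stem for 120 (15.5%). Over all 19793 unigenes higher in mature leaf, pericarp was the highest for 22.6%, close to the 21.0% of all 96318. An FPKM below 1 in all 5 non-leaf tissues was found for 80 (10.3%) of the 776 unigenes. This compares with 21 (1.34%) of the unigenes higher in young leaf and 166 (1.22%) of all 13616. Another tissue was at least as high as both leaves for 220 (28.4%) of the unigenes higher in mature leaf, for 1038 (66.1%) of those higher in young leaf and for 64.0% of all. In these libraries the transcripts higher in mature leaf held the larger share of leaf-restricted ones. All other 5 tissues were compared as single libraries, and their relative depth was not part of these counts.

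**Figure D3:**
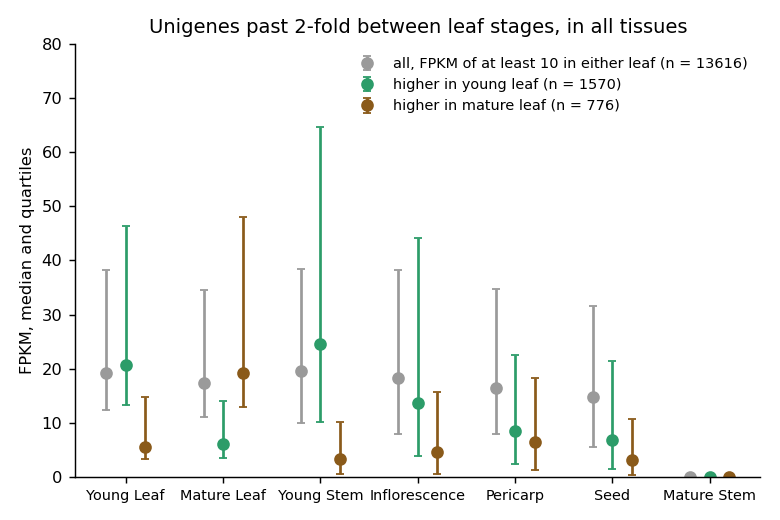
Points give the median FPKM and bars the lower and upper quartile in each of the 7 tissues, for all 13616 unigenes at an FPKM of 10 or more in either leaf (grey), the 1570 higher in young leaf (green) and the 776 higher in mature leaf (brown). The green median is 24.5 in young stem, above its value in young leaf, while the brown median is 6.46 or less in every tissue other than mature leaf. The low values of mature stem are those of the library that stands apart.

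For scale, the same 2-fold rule was applied between young stem and each leaf. It was met by 48.3% of 112853 unigenes between young stem and young leaf and by 54.4% of 115966 between young stem and mature leaf. These comparisons share libraries with the leaf comparison. The leaf stages, at 42.3%, had the lowest share of the 3 pairs. These shares include unigenes at the edge of detection. The depth of the young stem library was not compared, and no share at matched levels was computed, so the order is a description only.

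The triterpenoid list held 182 unigenes, of which 110 reached an FPKM of 1 in either leaf, 50 were listed at 0 in both and 22 lay between. Of the 110, 30 (27.3%) were higher in young leaf and 16 (14.5%) in mature leaf, and 64 lay within 2-fold. The shares over all 96318 unigenes were 21.7% and 20.5%. Their median log2 ratio was 0.17, beside 0.06 over all 96318 unigenes. Among the 70 that reached an FPKM of 1 in both leaves, 9 (12.9%) were higher in young leaf and 8 (11.4%) in mature leaf, with a median of -0.01. Over all 46621 unigenes under this filter the shares were lower, at 7.2% and 3.8%. Most of the surplus of young leaf calls in the list thus came from unigenes below an FPKM of 1 in one leaf. The summed FPKM of the list was 826 in young leaf and 741 in mature leaf.

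Farnesyl diphosphate synthase (FPPS), which makes the farnesyl unit of squalene, had a summed FPKM of 70.4 in young leaf and 41.6 in mature leaf. Its main unigene, Unigene080179, was at 42.50 and 35.14. Unigene214527 was at 27.92 in young leaf and 6.44 in mature leaf, a log2 ratio of 1.96. It was also expressed at 73.92 in young stem, 57.70 in inflorescence, 33.08 in seed and 19.04 in pericarp, so mature leaf had the lowest level outside mature stem. Both unigenes were also listed by the study as geranyl diphosphate synthase, and the list position of such related prenyltransferases is uncertain.

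Squalene synthase (SQS), which joins farnesyl units head to head, held its level. None of its 5 measured unigenes passed 2-fold, and Unigene193292 had an FPKM of 60.35 in young leaf and 68.16 in mature leaf. For squalene epoxidase (SQE), which forms the epoxide that the cyclases use, the leading Unigene250497 was at 44.48 and 34.07. Of the 17 measured SQE unigenes, 7 (41.2%) were higher in young leaf and 3 (17.6%) in mature leaf, beside 21.7% and 20.5% of all unigenes. Each of these SQE unigenes was at an FPKM below 7 in both leaves. Unigene131119 was at 0.32 in young leaf and 3.95 in mature leaf, a log2 ratio of -1.91. The leading SQS and SQE unigenes thus stayed within 2-fold, and the calls fell on weak copies.

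Amyrin synthase (AS), the cyclase that gives the amyrin skeleton of ursolic and oleanolic acids, showed differences in both directions among its copies. Its summed FPKM was 266 in young leaf and 197 in mature leaf. Of the 31 measured unigenes, 12 (38.7%) were higher in young leaf and 5 (16.1%) in mature leaf, beside 21.7% and 20.5% of all unigenes. Among the 18 that reached an FPKM of 1 in both leaves the counts were 5 and 2, with a median log2 ratio of 0.14. Most of the AS calls thus fell on copies below an FPKM of 1 in the lower leaf. Unigene081022, the leading one, was at 57.58 and 30.35, a log2 ratio of 0.90 that stayed below the 2-fold line. Unigene240919 had the largest ratio of the whole triterpenoid list, with 14.29 in young leaf and 1.69 in mature leaf (log2 ratio 2.51). Unigene224172 was at 2.75 in young leaf and was listed at 0 in mature leaf. Several abundant copies differed between the stages as well. Named after their values were seen, Unigene088140 (34.56 and 12.15 in young and mature leaf), Unigene080807 (22.85 and 6.78) and Unigene283042 (14.11 and 4.80) were higher in young leaf. Unigene124083 (23.21 and 37.42) and Unigene082304 (24.80 and 37.05), likewise named afterwards, had the higher value in mature leaf without reaching 2-fold. The 5 AS unigenes past 2-fold in mature leaf had an FPKM below 5 in both leaves.

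The other cyclases were expressed at a lower level. Cycloartenol synthase (CAS), at the entry to plant sterols, had a summed FPKM of 32.7 in young leaf and 22.4 in mature leaf, and its Unigene078800 was at 24.33 and 11.15 (log2 ratio 1.06). This unigene lay just past 2-fold, and with centred ratios it was at 0.95. Lupeol synthase (LS) summed to 30.7 and 24.8, with Unigene097749 at 7.90 and 9.10. Cucurbitadienol synthase (CBS), with Unigene275362 at 1.89 and 2.63, was barely expressed in leaves. A unigene listed only as an oxidosqualene cyclase (OSC), Unigene242439, was at 0.78 in young leaf and 5.57 in mature leaf, with 4.76 in pericarp and less than 1 in the other tissues. The remaining entries of the list, whose abbreviations TS and DH the study leaves unexplained, were low: Unigene244997 (TS) was at 3.09 and 1.38, and Unigene054480 (DH) at 3.10 and 4.90.

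The enzymes listed for the oxidation of amyrin (AO) had the higher sum in mature leaf, at 257 against 216 in young leaf. Of its 31 measured unigenes, 5 (16.1%) were higher in young leaf and 7 (22.6%) in mature leaf, near the 21.7% and 20.5% of all unigenes. Unigene077149 was the leading one, with 63.37 in young leaf and 21.23 in mature leaf, and it reached 136.57 in young stem and 116.12 in inflorescence. Unigene228266 was at 3.42 in young leaf and 18.15 in mature leaf, the lowest log2 ratio of the list at -2.12, with 14.37 in inflorescence. Unigene084018, named after its values were seen, was the most abundant AO unigene of mature leaf at 46.50, against 18.68 in young leaf. The leading AO transcript thus differed between stages, Unigene077149 in young leaf and Unigene084018 in mature leaf.

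The iridoid list held 83 unigenes, of which 52 reached an FPKM of 1 in either leaf, 18 were listed at 0 in both and 13 lay between. Of the 52, 10 (19.2%) were higher in young leaf and 4 (7.69%) in mature leaf, and 38 lay within 2-fold. The share in young leaf was near the 21.7% over all unigenes, and that in mature leaf was below their 20.5%. This comparison depended on the level. At an FPKM of at least 5 in either leaf, 8 (21.1%) of 38 were higher in young leaf and 3 (7.89%) in mature leaf. Over all 24080 unigenes at that level the shares were 13.9% and 7.97%, so there the young leaf share was the higher one and the mature leaf share was near theirs. With centred ratios the counts were 7 and 6, so the share of young leaf among those past 2-fold went from 71.4% to 53.8%. The median log2 ratio was 0.02, and it was -0.03 after rescaling to equal sums and -0.09 after centring. The summed FPKM was 3772 in young leaf and 3205 in mature leaf, and a single unigene of secologanin synthase held 51.2% and 45.9% of these sums.

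**Figure D4:**
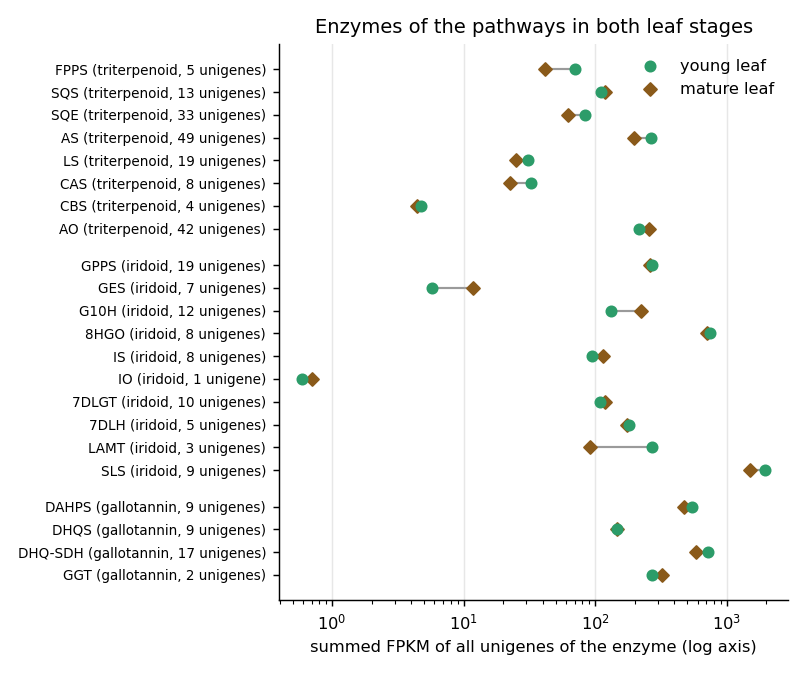
Summed FPKM of all unigenes of an enzyme in young leaf (green circles) and mature leaf (brown diamonds) on a log axis, in pathway order, with the number of listed unigenes after each name. Most pairs nearly touch, while LAMT lies well to the right in young leaf (271 against 92.1) and GES and G10H lie to the right in mature leaf.

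Summed over all listed unigenes of an enzyme, the first steps of the route were close in both leaves or higher in mature leaf. These sums do not separate the co-expressed part that the study assigned to the pathway. Geranyl diphosphate synthase (GPPS), which supplies the monoterpene unit, summed to 272 in young leaf and 259 in mature leaf. Its leading Unigene113028 was at 58.00 and 66.72. Of 13 measured GPPS unigenes, 4 (30.8%), Unigene214527 among them, were higher in young leaf and 0 in mature leaf, beside 21.7% and 20.5% of all unigenes. Geraniol synthase (GES) was at a low level, with a sum of 5.78 in young leaf and 11.8 in mature leaf. Unigene288660 was at 4.31 and 8.41 (log2 ratio -0.83), and Unigene052149 at 0.75 and 3.18 (log2 ratio -1.26). Both GES unigenes were at 0.40 or less in all other tissues, so these copies were nearly leaf-specific in these libraries. Other GES copies were listed at 0 in both leaves, such as Unigene036779, named after its values were seen, which was at 27.18 in young stem. Unigene290657, likewise named afterwards, stayed below the threshold at 0.72 in young leaf and 0.16 in mature leaf.

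Geraniol 10-hydroxylase (G10H), the P450 that hydroxylates geraniol, had a sum of 131 in young leaf and 222 in mature leaf, a 1.70-fold difference. Unigene288502 carried 33.0% of this sum in young leaf and 42.0% in mature leaf, with an FPKM of 43.12 and 93.48 (log2 ratio -1.10). In the other tissues it stood at 21.17 (young stem), 21.10 (pericarp), 9.73 (inflorescence) and 6.34 (seed). Mature leaf thus had the highest level of this unigene among the 7 libraries. Unigene134292, the other G10H unigene past 2-fold, was at 24.22 and 50.78 but reached 92.41 in pericarp. None of the 8 measured G10H unigenes was 2-fold higher in young leaf, while 2 had a positive log2 ratio and 6 a negative one.

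From the oxidation of hydroxygeraniol to hydroxylation of the glucoside, sums were close in both stages. The sum of 8-hydroxygeraniol oxidoreductase (8HGO) was 744 in young leaf and 713 in mature leaf, with Unigene122572 at 528.13 and 482.60. Iridoid synthase (IS), which closes the ring, summed to 94.9 and 114, with Unigene241827 at 66.36 and 86.77. The single unigene of iridoid oxidase (IO) stayed below the threshold, at 0.59 in young leaf and 0.70 in mature leaf. The glucosyltransferase 7DLGT summed to 109 and 118, and its leading Unigene274540 was at 52.20 and 51.96. Behind these equal levels its copies of low abundance diverged: Unigene274541 was at 5.96 in young leaf and 0.15 in mature leaf (log2 ratio 2.60), and Unigene274538 at 0.62 and 5.13 (log2 ratio -1.92). The hydroxylase 7DLH summed to 182 and 176. Its Unigene276335 was at 103.56 in young leaf and 75.95 in mature leaf and at 0.22 or less in all 5 other tissues, which makes it a leaf transcript at both stages.

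Loganic acid *O*-methyltransferase (LAMT), which makes loganin from loganic acid, had the largest fold difference in sum among the iridoid enzymes that reached a sum of 1 in both leaves. Its sum was 271 in young leaf and 92.1 in mature leaf, 2.95-fold higher in young leaf. A single transcript, Unigene220174, carried 99.3% and 99.6% of these sums, with an FPKM of 269.30 in young leaf and 91.67 in mature leaf (log2 ratio 1.54). Young stem had 233.99, pericarp 232.11, inflorescence 120.28 and seed 13.51. The level of young leaf was thus close to those of young stem and pericarp, and mature leaf stood below them.

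Secologanin synthase (SLS), the P450 that opens the ring of loganin, was the most abundant enzyme of the list, with a sum of 1962 in young leaf and 1498 in mature leaf. Unigene075938 carried 98.3% and 98.1% of it. Its FPKM was 1929.28 in young leaf, 1470.01 in mature leaf and 965.14 in young stem, and it fell to 139.57 in inflorescence, 8.62 in pericarp and 3.45 in seed. The log2 ratio between the leaves was 0.39, and none of the 5 measured SLS unigenes passed 2-fold. The next SLS unigene by leaf level, Unigene137214, named after its values were seen, was at 27.30 in young leaf and 22.37 in mature leaf. A high level of the leading unigene listed as SLS was thus found at both leaf stages, whereas the leading LAMT unigene differed 2.94-fold. Which of these copies are in the co-expressed part that the study assigned to the pathway was not separated here.

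Of the 3 pathway lists, the gallotannin list had the lowest share of unigenes past 2-fold. Of its 37 unigenes, 22 reached an FPKM of 1 in either leaf, 12 were listed at 0 in both and 3 lay between. A total of 3 (13.6%) were higher in young leaf and 0 in mature leaf, beside 21.7% and 20.5% of all unigenes. Among the 19 that reached an FPKM of 1 in both leaves, 2 (10.5%) were higher in young leaf and 0 in mature leaf. That was near the 11% of all unigenes past 2-fold in either direction under the same filter. The median log2 ratio was 0.20. The sums were 1679 in young leaf and 1530 in mature leaf. The first enzyme of the shikimate pathway (DAHPS) summed to 545 and 475, with Unigene085665 at 252.18 and 230.07. The next, 3-dehydroquinate synthase (DHQS), summed to 145.5 and 145.6, and its Unigene252093 was at 134.12 and 138.51. The equal sums of DHQS were the closest of any enzyme on the lists.

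All 3 unigenes past 2-fold belonged to 3-dehydroquinate dehydratase/shikimate dehydrogenase (DHQ-SDH), the bifunctional enzyme whose intermediate leads to gallic acid. Its leading Unigene173474 was at 309.71 in young leaf and 264.52 in mature leaf, within 2-fold. Unigene124959 was at 38.18 and 9.87 (log2 ratio 1.85) and Unigene124964 at 29.76 and 12.61 (log2 ratio 1.18). These share a similar pattern beyond the leaf, with 41.80 and 40.32 in young stem, 15.49 and 8.63 in pericarp, and 0 in seed. Unigene105535 was at 1.51 and was listed at 0 in mature leaf. Gallate glucosyltransferase (GGT), which begins gallotannin assembly by attaching gallate to glucose, had the higher values in mature leaf for both of its unigenes. The sums were 268 in young leaf and 322 in mature leaf, and Unigene281485 was at 180.44 and 223.86 (log2 ratio -0.31).

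Cytochrome P450s had more unigenes higher in mature leaf than in young leaf, unlike the pathway lists. The study kept P450 unigenes above a minimum length that reached an FPKM of 5 in 1 or more tissues. Of these, 146 reached an FPKM of 1 in either leaf, 83 were listed at 0 in both and 33 lay between, and 72 of the whole list reached 5 only in the mature stem library. Of the 146, 13 (8.90%) were higher in young leaf and 27 (18.5%) in mature leaf, and 106 lay within 2-fold. Among all unigenes selected at the same level of 5 in any tissue, 5700 of 36217 or 15.7% were higher in young leaf and 3306 or 9.13% in mature leaf, together 24.9%. The median log2 ratio was -0.25 for the P450s and 0.17 for these 36217 unigenes. A negative ratio was found for 99 of the 146 P450s and a positive one for 47. After centring the median was -0.36, with 12 higher in young leaf and 33 in mature leaf.

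The difference was not confined to weak transcripts. Of 60 P450 unigenes with a mean leaf FPKM of at least 10, 4 were higher in young leaf and 12 in mature leaf, with a median log2 ratio of -0.52. Of all 11641 unigenes at that level, 1019 were higher in young leaf and 466 in mature leaf, with a median of 0.14. The summed FPKM of the P450 list was 2865 in young leaf and 3458 in mature leaf. The list shared 12 unigenes with the iridoid list, so the groups are not independent, while the leading SLS unigene and Unigene288502 (G10H) were not on it.

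**Figure D5:**
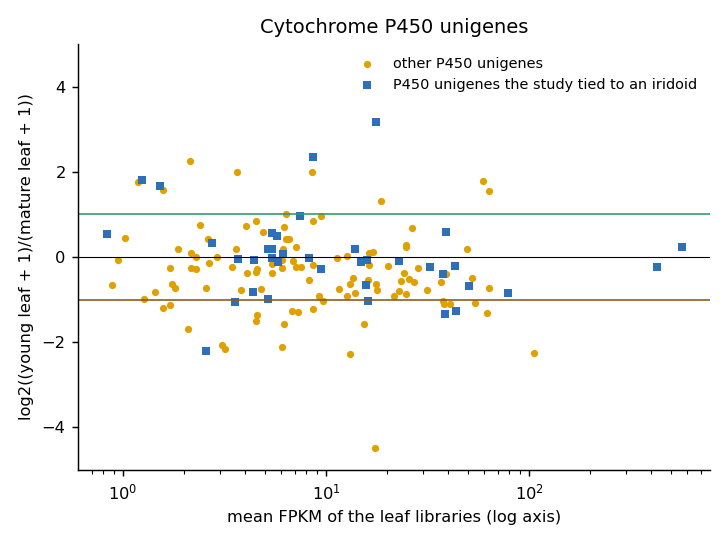
Each point is 1 of the 146 P450 unigenes that reached an FPKM of 1 in either leaf, by its mean FPKM over the leaf libraries (x, log axis) and its log2 ratio of young over mature leaf (y). Blue squares are P450s that the study tied to an iridoid, and the coloured lines mark 2-fold. Of the points, 99 lie below 0 and 47 above it, and the 2 farthest are at 3.17 and -4.49.

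The P450s with the highest ratios were Unigene089117, at 32.48 in young leaf and 2.73 in mature leaf (log2 ratio 3.17), and Unigene116755, at 15.18 and 2.17 (log2 ratio 2.35). Neither exceeded 3.41 in another tissue, so young leaf had by far the highest level of both. The next 3 were also expressed in young stem. Unigene104335 was at 4.19 and 0.09 in the leaves and 15.03 in young stem, Unigene080009 at 14.19 and 2.78 and 11.57, and Unigene072827 at 6.41 and 0.86 and 12.16.

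Of the P450s higher in mature leaf, Unigene077719 had the lowest ratio, at 0.56 in young leaf and 34.12 in mature leaf (log2 ratio -4.49), with 25.44 in inflorescence and 20.48 in pericarp. Unigene067291 was the most abundant of them, with 36.23 in young leaf, 176.43 in mature leaf, 114.66 in inflorescence and 88.76 in pericarp. It was at 28.90 in mature stem, where the other 26 P450s higher in mature leaf were at 0.28 or less. Young stem, at 0.37 and 17.25, was at or below the young leaf for both. Unigene117815 (3.82 and 22.50), Unigene112792 (0.28 and 4.86) and Unigene117820 (0.53 and 5.86) had log2 ratios of -2.29, -2.19 and -2.16.

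The most abundant unigenes of the P450 list in the leaf stayed within 2-fold. Unigene288424 was at 612.87 in young leaf and 517.04 in mature leaf (log2 ratio 0.24), and Unigene224632 at 395.92 and 462.33 (log2 ratio -0.22). The level of the first was 260.90 in young stem and 0 in seed, and the second was at 35.27 or less outside leaves. Both belong to the 45 P450s that the study tied to an iridoid by their pattern over these same tissues. Of these 45, 38 reached an FPKM of 1 in either leaf, with a median log2 ratio of -0.08. Of the 38, 4 (10.5%) were higher in young leaf and 5 (13.2%) in mature leaf. The shares were 8.90% and 18.5% in the whole P450 list. Over all unigenes at an FPKM of 5 in any tissue they were 15.7% and 9.13%. As this subset was chosen on these samples, its values are a description of the choice too.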

How the data were processed

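The authors trimmed reads of poly(A)-selected, strand-specific Illumina libraries with Trimmomatic, merged several *de novo* assemblies, removed redundancy, aligned every library to the resulting unigenes by Bowtie and used RSEM to obtain FPKM. Versions of Trimmomatic and RSEM were not given in the sources used here. The deposited FPKM values hold no read counts, and RSEM divides reads between similar unigenes, so near-identical copies are less certain. Young and mature leaf were compared over unigenes reaching an FPKM of 1 in either, as log2((young + 1)/(mature + 1)), with a pseudocount of 1 and a threshold of 2-fold. This scale understates the change of weakly expressed unigenes. FPKM ratios given as a plain fold use no pseudocount. The series table and the 7 tissue tables held equal values. Depth was compared through unigenes above 0 in the leaf libraries alone.

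Enzyme and P450 lists came from the supplementary tables of the study, as names only, and all 564 entries were found (549 distinct unigenes, 3 of them on both the triterpenoid and the iridoid list). The metabolite levels of the study were not used here. Named unigenes are the one with the highest mean leaf FPKM of each pathway enzyme if at least 1, the 3 with the largest log2 ratio past 2-fold in each direction of each pathway list, the 5 in each direction and the 3 highest among P450s, and 2 in each direction outside the lists. The unigenes, lists and rules were chosen with earlier results of these data known. Alternatives covered the pseudocount, the filter on low FPKM, an equal sum per library and centring on the median of unigenes reaching an FPKM of 10 in both leaves. Calculations used Python 3.11.15, numpy 2.4.6, pandas 2.3.3 and matplotlib 3.10.9, and were tested on simulated data.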

Additional observations from a re-analysis of the deposited data

How the results depend on the processing

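No paired analysis was possible because each leaf stage had 1 library. The median log2 ratio over all unigenes, 0.06 as deposited, was 0.01 after rescaling to an equal sum and -0.05 after centring, which shifts every ratio by -0.11. Of the counts past 2-fold, 74 under an alternative (those chosen after seeing the data included) stayed within 1.5 times of their value, and 14 did not. Filters on low FPKM gave most of these 14. The 74 include the counts without a filter beyond an FPKM above 0, which could not move. A 2-fold call with a pseudocount of 1 already requires an FPKM of at least 1 in the higher leaf. With a mean FPKM of at least 1, 10464 unigenes were higher in young leaf and 8761 in mature leaf. With at least 1 in both leaves these were 3358 and 1772, with 9 and 8 triterpenoid unigenes, 2 iridoid unigenes higher in mature leaf and 7 P450s higher in young leaf. With at least 5 in either leaf they were 3347 and 1920, with 8 and 7 triterpenoid unigenes and 8 P450s higher in young leaf. A pseudocount of 0.1 gave 7 iridoid unigenes higher in mature leaf. These counts changed because the filters remove unigenes listed at or near 0 in one leaf and the pseudocount sets their ratio. Of the values of named unigenes, 202 stayed on their side of 2-fold, while Unigene244997 (TS) went to 1.11 with a pseudocount of 0.1 and Unigene078800 (CAS) to 0.95 after centring. Unigene274540 (7DLGT), with almost equal levels, went from 0.01 to -0.04 with equal sums and -0.10 after centring, and no other named unigene changed sign. For unigenes at an FPKM of at least 10 in the higher leaf, alternatives chosen after seeing the data gave 1319 to 1725 in young leaf and 821 to 946 in mature leaf. With 1 library per stage, the spread between leaves of one stage is unknown, and FPKM without counts allows no interval for any value.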

Other observations

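Unigenes of 1 pathway enzyme with neighbouring numbers did not always differ in the same direction between the leaf stages. What the numbers mean is not given in the sources used here, and these pairs were chosen after their values were seen. Among 50 pairs of 1 enzyme whose numbers lay within 5 of each other and whose members both reached an FPKM of 1 in either leaf, the log2 ratio had the opposite sign in 29. In 7 of them one member was at least 2-fold higher in young leaf and the other in mature leaf. The same unigene can be in several of the 50 pairs, so these are not separate pairs. The share among pairs of other unigenes was not computed, so the counts cannot be set against it. The 7DLGT pair Unigene274538 and Unigene274541 had a joint FPKM of 6.58 in young leaf and 5.28 in mature leaf. The AO pair Unigene077149 and Unigene077150 had 77.61 and 54.81. In the AO pair Unigene228266 and Unigene228267 the joint value was 5.49 and 18.15. As these pairs were picked for opposite differences, their joint values are a description only. Whether such pairs are copies of a gene, alleles or fragments of one transcript was not tested.

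Neighbouring P450s were found in both directions. Unigene117815, Unigene117816 and Unigene117820 had log2 ratios of -2.29, -1.33 and -2.16, while Unigene117814 of the same run was at 0.96. Unigene122431 and Unigene122432 had -1.58 and -1.31. Unigene122432 was at 35.37 in young leaf, 89.06 in mature leaf and 39.16 in inflorescence, whereas Unigene122431 was at 7.25 and 23.60 in the leaves and listed at 0 in inflorescence.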
